A study of Mus musculus with 8 samples.

Results

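Insulin-like growth factors (IGFs), their binding proteins and partner genes are described here in activated muscle stem cells (ASCs) of mice with and without mitofusin 2. The members form a set picked by gene symbol, with earlier results of these data known. It holds the 2 growth factors (Igf1 and Igf2), the receptor Igf2r, the non-coding RNA gene H19, which shares an imprinted region with Igf2, and the 6 binding proteins Igfbp2, Igfbp3, Igfbp4, Igfbp5, Igfbp6 and Igfbp7. All 10 members were in the table of 18877 genes, and 9 of them were among the 11754 genes tested, which had a mean of at least 10 normalized reads over the 8 libraries. Igfbp2 was under that minimum.

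There were 4 wild-type and 4 mfn2-/- libraries. All mice carried a mitochondrial Dendra2 fluorescent reporter and the tamoxifen-inducible driver Pax7-CreERT2, which acts in muscle stem cells, and all received tamoxifen at 75 mg/kg on each of 5 days. In mfn2-/- mice the conditional Mfn2 alleles were removed by the same driver, so that the deletion was limited to cells with a history of Pax7 expression. The tibialis anterior was injured with barium chloride, and 2 days later living CD34-, Dendra2+ cells were sorted and their total RNA was sequenced. Ages and the number of mice behind each library are not given in the sources used here, so the p-values measure the spread between these libraries, which may be partly technical.

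IGF1 and IGF2 are secreted growth factors that signal mainly through the IGF1 receptor to PI3K, AKT and mTOR. In skeletal muscle they promote the proliferation and differentiation of myogenic cells and the growth of fibres, and during repair IGF1 is made by several cell types, among them fibroblasts and macrophages. The IGF2 receptor, also called the cation-independent mannose 6-phosphate receptor, takes up IGF2 for degradation. IGF binding proteins hold the factors outside cells and can block or prolong their action, and proteases release the factors by cutting the binding proteins.

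The libraries held 1880464 to 7508215 reads, each read counting for 0.534 to 2.27 normalized reads depending on the library. Reads fell in 9646 genes in mfn2-/- replicate 4, and in 12613 to 15270 genes in the other libraries. Mfn2, the targeted gene, ranged from 202 to 245 normalized reads among wild-type libraries and from 104 to 172 among mfn2-/- ones, a log2 difference of -0.88 (SE 0.30, limma adjusted p 0.0848, exact permutation p = 0.0286, n = 4 per group). Hif1a, the other gene the study turns on, was 3.56-fold higher in mfn2-/- ASCs (log2 difference 1.85, SE 0.20, limma adjusted p 7.97e-05). Each group held 2 libraries with reads from 4 Y-linked genes (807 to 2336 reads) and 2 libraries with 0 such reads. Y-linked reads were found in wild-type replicates 3 and 4, and among the mfn2-/- libraries in replicates 1 and 2. Myogenic markers were detected in every library, with Pax7 at 582 to 803 normalized reads, and 3 of 8 were higher in mfn2-/- ASCs by limma. These were Myod1 (172 ± 56.6 against 828 ± 110), Des (2156 ± 888 against 7969 ± 2942) and Sdc4 (4271 ± 1529 against 17473 ± 3953). The other 5 were not called, and the median log2 difference of the 8 was 0.27. Together the 8 summed to 6795 to 12131 normalized reads per wild-type library and 23411 to 38004 per mfn2-/- library. Markers of fibroadipogenic cells, the fibroblast-like progenitors of muscle, summed to 201142 to 258282 normalized reads per wild-type library and 5303 to 9854 per mfn2-/- library, and 12 of 14 were lower by limma. Markers of tenocytes, the cells of tendon, summed to 40809 to 65595 against 306 to 435, and 10 of 10 were lower. None of these 24 markers was at 0 in all mfn2-/- libraries, although Chad, a cartilage and tendon matrix protein, was at 3 reads or fewer in each. In every wild-type library the fibroadipogenic and the tenocyte sum each lay above the myogenic sum, and in every mfn2-/- library below it. On average Des and Sdc4 made up most of the mfn2-/- myogenic sum. The sums are of reads not divided by gene length, over lists of 14, 10 and 8 genes, so they do not give shares of cells. The name ASCs follows the sample titles, and values given for ASCs are those of whole libraries.

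**Figure D1:**
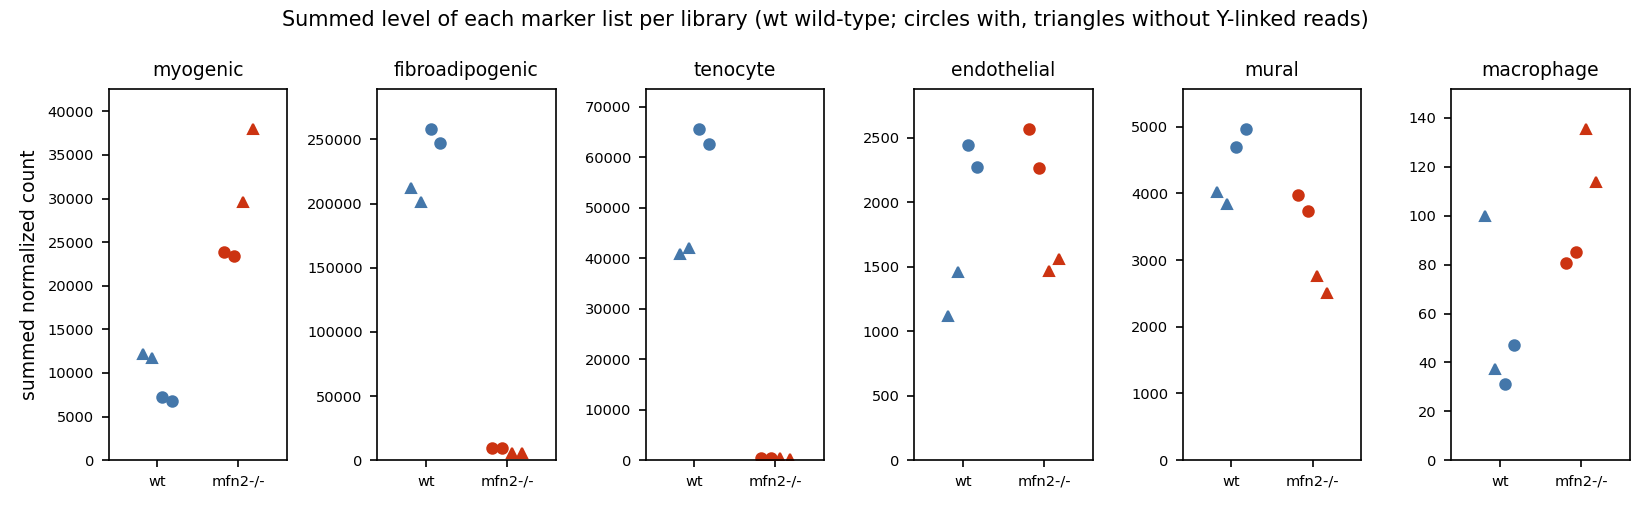
Summed normalized read counts (linear axes from 0) of 6 marker lists in each wild-type (blue) and mfn2-/- (red) library, with circles for libraries with Y-linked reads and triangles for those without. The fibroadipogenic and tenocyte sums of the groups lie far apart, and the endothelial sums overlap. The myogenic sums are higher in mfn2-/- libraries, mostly through Des and Sdc4.

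Of the 9 members tested, 5 were lower in mfn2-/- ASCs at an adjusted p under 0.05 by limma (Igf1, Igfbp3, Igfbp4, Igfbp6 and Igfbp7). No member was higher, and none was higher at an unadjusted p under 0.05. The edgeR test of the recovered reads gave 5 lower and 0 higher members, and DESeq2 gave 6 and 0. Over all genes tested 10.4% were called, 6.36% as lower and 3.99% as higher. The groups did not overlap for the same 5 members, against 19.5% of all genes tested. The median log2 difference of the 9 members was -1.22, beside -0.16 over all genes tested. Since the members were chosen with earlier results of these data known, these comparisons are descriptive and no independent test of the set. Fewer cells of a type in a library and less RNA of a gene per cell cannot be told apart in these bulk samples.

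**Figure D2:**
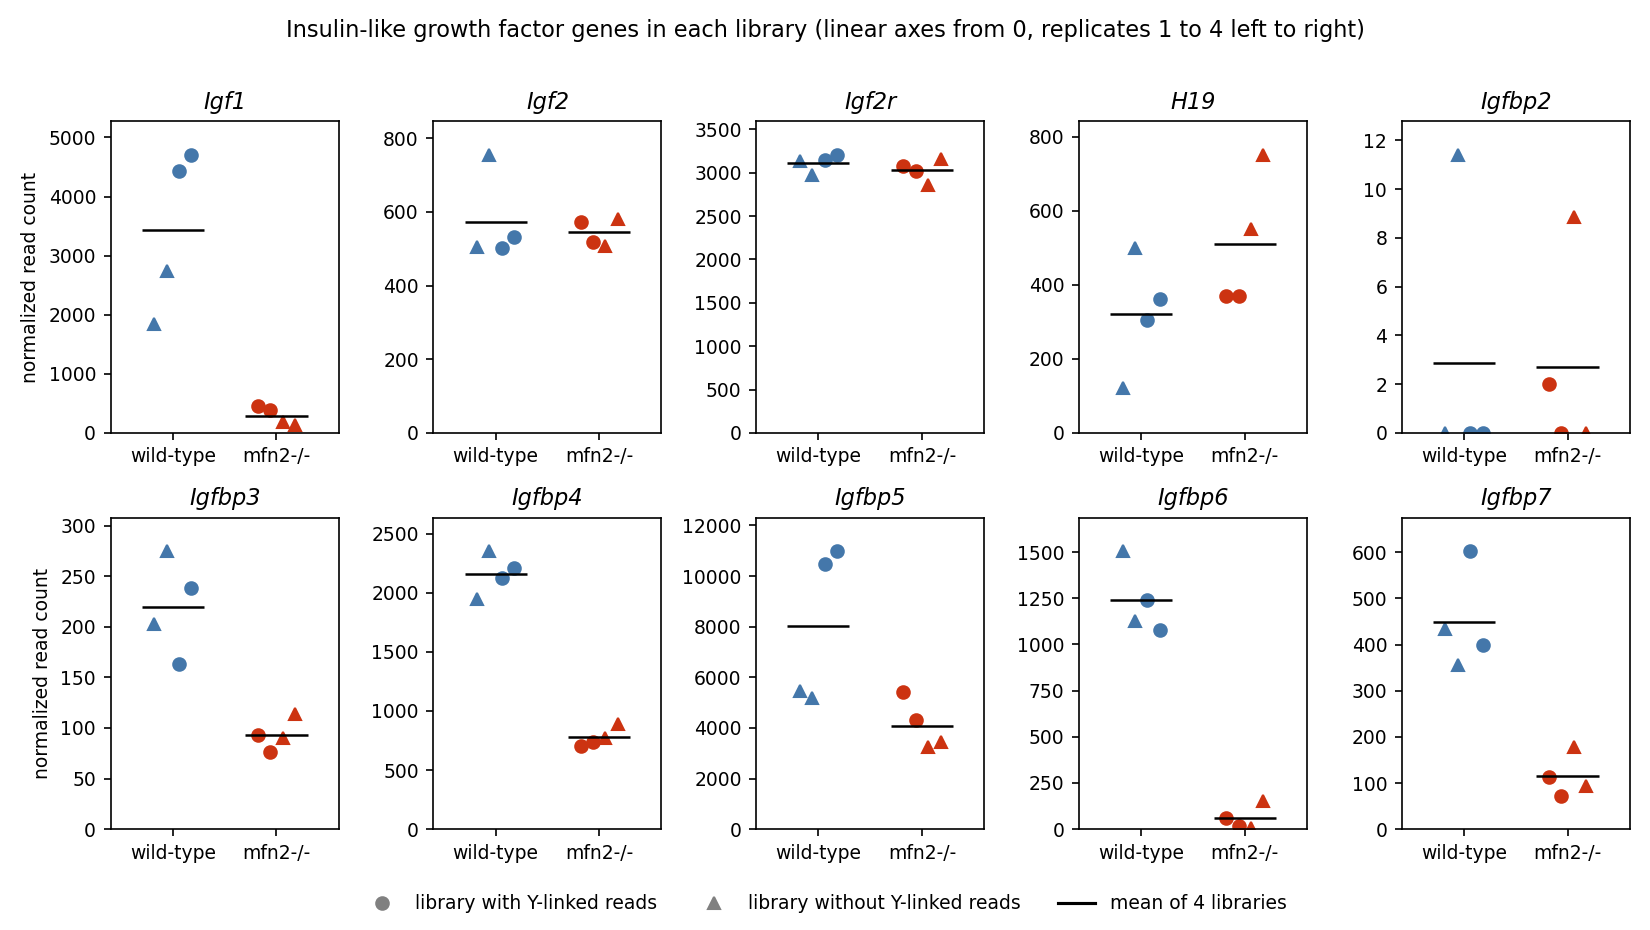
Normalized read counts of the 10 members in each library (linear axes from 0, wild-type blue, mfn2-/- red, black lines group means, circles libraries with and triangles libraries without Y-linked reads). Igf1, Igfbp3, Igfbp4, Igfbp6 and Igfbp7 do not overlap between the groups, while Igf2 and Igf2r lie at the same height in both.

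Igf1 fell 11.7-fold and Igf2 gave no detectable difference. Igf1 (chromosome 10, 87858265 to 87937042, plus strand, in the GENCODE M21 annotation of GRCm38) gave 1847, 2742, 4427 and 4707 normalized reads in wild-type replicates 1 to 4, and 460, 388, 188 and 139 in mfn2-/- replicates 1 to 4. The lowest wild-type library lay above the highest mfn2-/- library, and within each group the libraries with Y-linked reads were the higher ones. The means were 3431 ± 1367 and 294 ± 154 (SD, n = 4 each), with a log2 difference of -3.61 (SE 0.39, 95% confidence interval -4.44 to -2.78, limma adjusted p 5.95e-05, exact permutation p = 0.0286, the smallest that 4 against 4 can give). The fall was -3.43 on the log2 scale between libraries with Y-linked reads and -3.79 between those without. With the kind of library added to the model, Igf1 was the only member that also differed by kind, being higher by 1.20 on the log2 scale where Y-linked reads were present (limma adjusted p 0.0305). In all, 26 genes differed by kind. The fibroadipogenic and tenocyte sums were likewise highest in wild-type replicates 3 and 4. Macrophage markers summed to 31.0 to 100 normalized reads per wild-type library and 80.7 to 136 per mfn2-/- library. Of the 4 tested, 0 were called by limma. The part of all these markers' cells in the Igf1 values was not tested.

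Igf2 (chromosome 7, 142650766 to 142666816, minus strand) gave 505, 755, 501 and 532 normalized reads in wild-type libraries and 572, 518, 508 and 581 in mfn2-/- replicates 1 to 4. Apart from wild-type replicate 2 these values lay within a narrow band, and the groups overlapped. The means were 573 ± 122 and 545 ± 37.1, and the log2 difference was -0.05 (SE 0.20, 95% confidence interval -0.50 to 0.39, limma adjusted p 0.897). Its sign is not settled, since it was 0.09 without wild-type replicate 2. Per kilobase of exon, the ratio of Igf1 to Igf2 was 2.11, 2.10, 5.11 and 5.11 in the wild-type libraries and 0.465, 0.433, 0.214 and 0.139 in the mfn2-/- libraries. Igf1 was thus the higher of these growth factor transcripts in 4 of 4 wild-type libraries and the lower in 4 of 4 mfn2-/- libraries. The antisense gene Igf2os overlaps Igf2 on the other strand and gave 0 to 40.9 normalized reads, below the minimum for testing. How the authors' counting treated strand is not given in the sources used here.

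H19 lies 72.6 kb from Igf2 on the same strand (chromosome 7, 142575529 to 142578143). In mammals Igf2 is expressed from the paternal and H19 from the maternal chromosome. The H19 values were 121, 500, 306 and 362 normalized reads in wild-type libraries and 369, 369, 551 and 751 in mfn2-/- replicates 1 to 4. The groups overlapped through wild-type replicate 2, and the highest values came from mfn2-/- libraries without Y-linked reads. The means were 322 ± 157 and 510 ± 182, with a log2 difference of 0.77 (SE 0.39, 95% confidence interval -0.08 to 1.62), which did not pass the test (limma adjusted p 0.252, exact permutation p = 0.143, n = 4 per group). Between libraries with Y-linked reads the difference was 0.15, and between those without it was 1.39. The test of that contrast between kinds of library did not pass (limma adjusted p 0.542). Without the library of lowest depth in each group the H19 difference was 0.15. An exon of H19 also holds the precursor of the microRNA miR-675, whose mature arms are shown because the host transcript is a member. The capitals mark the seed, bases 2 to 8, and the sequences are those of RefSeq.
mmu-miR-675-5p: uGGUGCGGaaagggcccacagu
mmu-miR-675-3p: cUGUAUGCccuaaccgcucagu
The arms have different seeds. The microRNA itself was not analysed here.

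Igf2r was the steadiest member. Igf2r (chromosome 17, 12682406 to 12769664, minus strand) gave 3132, 2974, 3148 and 3206 normalized reads in wild-type libraries and 3081, 3016, 2861 and 3163 in mfn2-/- replicates 1 to 4. All 8 values lay close together and the groups overlapped. The log2 difference was -0.04 (SE 0.16, 95% confidence interval -0.37 to 0.29, limma adjusted p 0.899), and its sign turned with equal totals, upper-quartile scaling and edgeR. Airn, the antisense RNA that silences the paternal copy of Igf2r in most tissues, overlaps the gene and had a mean of 88.3 ± 17.2 normalized reads over the wild-type libraries and 32.9 ± 21.4 over the mfn2-/- ones. Its log2 difference of -1.99 did not pass the test (SE 0.91, limma adjusted p 0.197), although its groups did not overlap. The mfn2-/- values ran from 1.83 in replicate 4, which held 1 read, to 48.2.

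Among the binding proteins Igfbp6 fell most, Igfbp7, Igfbp4 and Igfbp3 fell less, Igfbp5 was lower on average without passing the test, and Igfbp2 was barely detected. The 4 that fell did so in the same libraries in which 12 of 14 fibroadipogenic and 10 of 10 tenocyte markers were lower, and the part of those markers' cells in the binding protein values was not tested. For 9 of the 10 members RefSeq gave a promoter window, all but H19. The 250 bases before the RefSeq start are shown for the 4 binding proteins that fell, with build GRCm38.p6 and the strand of the gene. Windows that overlap annotated exons are not shown, which leaves out Igf1. The Igfbp6 start in RefSeq lies upstream of that in GENCODE. Capitals mark matches, on either strand, to GCGTG and ACGTG (the core of the hypoxia response element), TATAAA (the TATA box), GGGCGG (the GC box) and CAGCTG (an E-box of the kind that MyoD binds).
Igfbp6, chr15:102143936-102144185, plus strand: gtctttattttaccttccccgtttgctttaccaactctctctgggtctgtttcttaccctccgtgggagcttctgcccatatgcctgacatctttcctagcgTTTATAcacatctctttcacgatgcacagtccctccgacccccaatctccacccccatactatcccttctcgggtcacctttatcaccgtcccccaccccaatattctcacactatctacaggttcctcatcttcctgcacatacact
Igfbp7, chr5:77408046-77408295, minus strand: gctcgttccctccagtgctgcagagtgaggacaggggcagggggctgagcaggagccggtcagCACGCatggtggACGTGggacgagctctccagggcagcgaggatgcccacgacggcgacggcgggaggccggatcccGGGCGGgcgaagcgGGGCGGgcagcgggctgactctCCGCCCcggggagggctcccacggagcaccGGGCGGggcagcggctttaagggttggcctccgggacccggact
Igfbp4, chr11:99040994-99041243, plus strand: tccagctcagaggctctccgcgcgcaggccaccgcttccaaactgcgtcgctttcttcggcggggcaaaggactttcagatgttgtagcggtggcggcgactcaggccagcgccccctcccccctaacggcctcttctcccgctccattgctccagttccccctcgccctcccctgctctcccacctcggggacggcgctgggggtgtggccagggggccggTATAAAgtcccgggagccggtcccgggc
Igfbp3, chr11:7213924-7214173, minus strand: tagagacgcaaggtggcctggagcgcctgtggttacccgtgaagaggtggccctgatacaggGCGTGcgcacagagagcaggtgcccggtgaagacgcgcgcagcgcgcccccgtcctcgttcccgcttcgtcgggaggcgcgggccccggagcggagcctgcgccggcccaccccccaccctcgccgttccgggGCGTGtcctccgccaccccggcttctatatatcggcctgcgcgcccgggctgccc
The motifs were not shared by all 4 windows. TATAAA was found once each in Igfbp6, on the opposite strand, and in Igfbp4, and in 12.4% of the 32851 RefSeq windows of this length. GCGTG was found at 2 sites in Igfbp3 and 1 in Igfbp7, and in 28.2% of all windows. ACGTG was found at 1 site in Igfbp7 and in 16.6% of all windows. Igfbp7 alone held GGGCGG, at 4 sites, a motif of 32.7% of all windows, and CAGCTG was in none of these 4 windows and in 13.0% of all. The windows of Igfbp7, Igfbp3 and Igfbp4 were rich in G and C (74.0%, 73.2% and 69.2%, beside a median of 52.4%), and that of Igfbp6 was not (49.6%). These matches describe letters, not binding.

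Igfbp6, a binding protein that prefers IGF2 over IGF1 (chromosome 15, 102144362 to 102149511, plus strand), gave 1506, 1129, 1243 and 1080 normalized reads in wild-type replicates 1 to 4. In mfn2-/- replicates 1 to 4 it gave 61.3, 18.2, 8.84 and 152, which came from 92, 23, 12 and 83 reads. Every mfn2-/- library was far below every wild-type library, and relative to the group mean the mfn2-/- values were the more spread. The means were 1239 ± 190 and 60.1 ± 65.4, a 20.6-fold fall, and the log2 difference was -5.07 (SE 0.65, 95% confidence interval -6.47 to -3.67, limma adjusted p 0.000299). It was -5.07 between libraries with Y-linked reads and -5.07 between those without, though with 2 against 2 libraries of the second kind the adjusted p was 0.11. The difference ran from -5.76 without mfn2-/- replicate 4, the library with the highest value of its group, to -4.44 without mfn2-/- replicate 3, which had the lowest, and it was -4.43 with edgeR and -4.38 with DESeq2.

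Igfbp7, which binds IGFs only weakly and sits in basement membranes and vessel walls (chromosome 5, 77349240 to 77408041, minus strand), gave 434, 357, 603 and 399 normalized reads in wild-type replicates 1 to 4. The mfn2-/- replicates gave 113, 71.9, 178 and 93.5. The groups were separate, with mfn2-/- replicate 3 the highest of its group and wild-type replicate 3 of the other. The means were 448 ± 108 and 114 ± 45.9, a 3.92-fold fall with a log2 difference of -2.01 (SE 0.33, 95% confidence interval -2.72 to -1.31, limma adjusted p 0.00163). It was -2.43 between libraries with Y-linked reads and -1.60 between those without, where the adjusted p was 0.209. The endothelial markers, whose cells also make IGFBP7, summed to 1114 to 2447 normalized reads per wild-type library and 1463 to 2569 per mfn2-/- library, and 0 of 8 passed the test by limma. Markers of mural cells, which surround vessels, summed to 3840 to 4970 against 2511 to 3973, with 2 of 7 tested lower, 1 higher and a median log2 difference of -0.78. Their part in the Igfbp7 values was not tested.

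Igfbp4, a binding protein that holds IGFs until the protease PAPP-A cuts it (chromosome 11, 99041244 to 99054392, plus strand), gave 1949, 2352, 2125 and 2207 normalized reads in wild-type libraries and 707, 738, 768 and 891 in mfn2-/- replicates 1 to 4. Libraries of a group lay close together and the groups were far apart. The means were 2158 ± 168 and 776 ± 80.3, a 2.78-fold fall with a log2 difference of -1.48 (SE 0.17, 95% confidence interval -1.84 to -1.12, limma adjusted p 9.86e-05). Together with Igf1 it was a member that passed in each of the 24 alternative settings.

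Igfbp3, the main carrier of IGFs in the circulation (chromosome 11, 7206086 to 7213923, minus strand), gave 202, 275, 163 and 239 normalized reads in wild-type libraries and 93.3, 75.8, 89.9 and 114 in mfn2-/- replicates 1 to 4. The groups did not overlap, although the lowest wild-type value was not far above the highest mfn2-/- value. The means were 220 ± 47.9 and 93.2 ± 15.6, a 2.36-fold fall with a log2 difference of -1.22 (SE 0.33, 95% confidence interval -1.94 to -0.50, limma adjusted p 0.0348). The size hardly changed between libraries with (-1.22) and without (-1.21) Y-linked reads. The call was lost in 10 of 24 settings, with adjusted p up to 0.348, 6 of them fits that left out 1 library.

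Igfbp5, which is expressed strongly in differentiating myoblasts (chromosome 1, 72857932 to 72874884, minus strand), gave 5460, 5165, 10485 and 10989 normalized reads in wild-type libraries and 5415, 4295, 3228 and 3440 in mfn2-/- replicates 1 to 4. As for Igf1, the higher values of each group came from the libraries with Y-linked reads. Wild-type replicate 2 lay below mfn2-/- replicate 1, so the groups overlapped. The means were 8025 ± 3141 and 4094 ± 994, and the log2 difference of -0.91 (SE 0.28, 95% confidence interval -1.52 to -0.31) did not pass the test (limma adjusted p 0.0553). It was -1.15 between libraries with Y-linked reads, where it passed (limma adjusted p 0.00039), and -0.67 between those without (adjusted p 0.11). The contrast of these differences did not pass (limma adjusted p 0.33). With the kind of library as a term Igfbp5 passed at an adjusted p of 0.0032, and it passed in 8 of 24 settings in all.

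Igfbp2, which lies 5.46 kb from Igfbp5 in the opposite orientation (chromosome 1, 72824503 to 72852474, plus strand), gave 0, 11.4, 0 and 0 normalized reads in wild-type libraries and 2.00, 0, 8.84 and 0 in mfn2-/- replicates 1 to 4. Only 1 wild-type and 2 mfn2-/- libraries held any read, with 11, 3 and 12 reads. A library with 0 reads could have had up to 3 by counting error alone. A difference was not detectable at this depth.

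**Figure D3:**
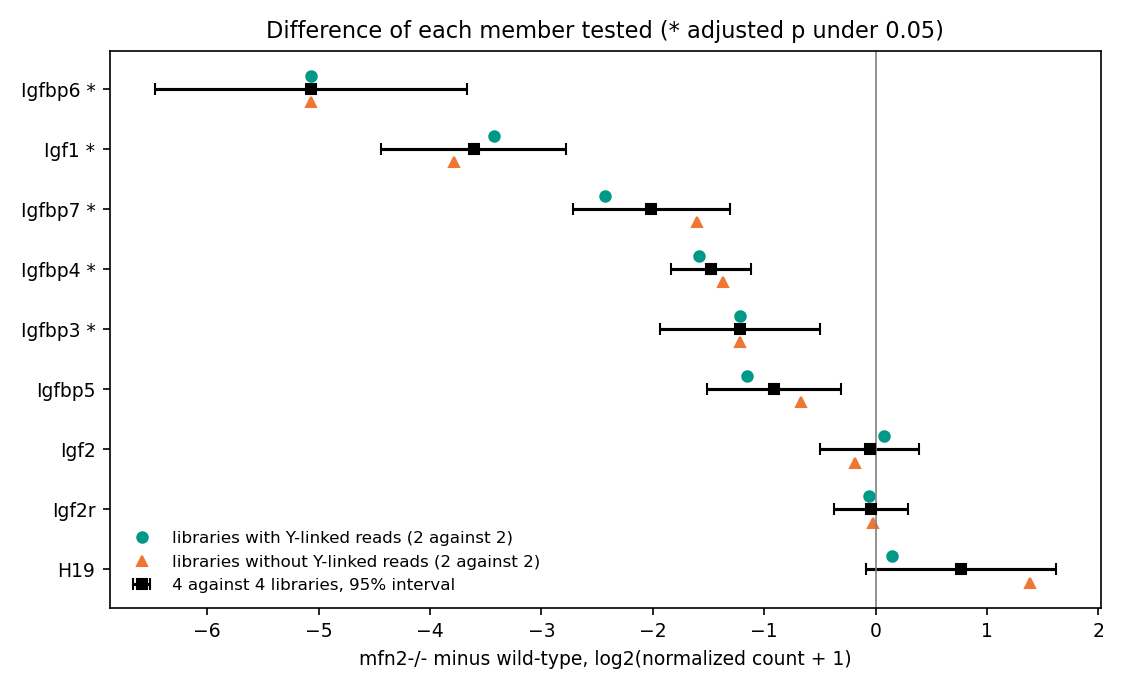
Difference in log2(normalized count + 1), mfn2-/- minus wild-type, for the 9 members tested, with 95% confidence intervals over 4 against 4 libraries (black) and the differences within libraries with (green circles) and without (orange triangles) Y-linked reads. The intervals of Igf2, Igf2r and H19 include 0, and Igfbp6 and Igf1 lie farthest to the left.

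The order of the members' levels differed between the groups. Levels of different genes were compared as normalized reads per kilobase of exon. They are levels of whole libraries, whose fibroadipogenic, tenocyte and myogenic marker sums differed between the groups, and the part of those cells was not tested. In wild-type ASCs Igfbp5 was highest at 1336 ± 523, and Igfbp6 followed at 1115 ± 171, although these overlapped and Igfbp5 was the higher in 2 of 4 libraries. Igfbp4 (489 ± 38.1), Igfbp7 (371 ± 89.1), Igf1 (346 ± 138) and Igf2r (335 ± 10.7) came next, each overlapping the one after it. H19 (131 ± 63.9), Igf2 (100.1 ± 21.3) and Igfbp3 (70.2 ± 15.3) also overlapped in that order, and Igfbp2 was last at 1.54 ± 3.09. In mfn2-/- ASCs Igfbp5 remained highest at 682 ± 165, with no overlap with Igf2r, now second at 326 ± 13.7. H19 (207 ± 74.1) and Igfbp4 (176 ± 18.2) overlapped, as did Igf2 (95.2 ± 6.48) with Igfbp7 (94.5 ± 38.0) and Igfbp7 with Igfbp6 (54.1 ± 58.9). Igfbp6 overlapped with Igfbp3 (29.8 ± 4.98), which overlapped with Igf1 (29.7 ± 15.6), and Igfbp2 was again last at 1.47 ± 2.27. Igf1 thus went from rank 5 to rank 9 of 10, and Igfbp6 from rank 2 to rank 7.

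**Figure D4:**
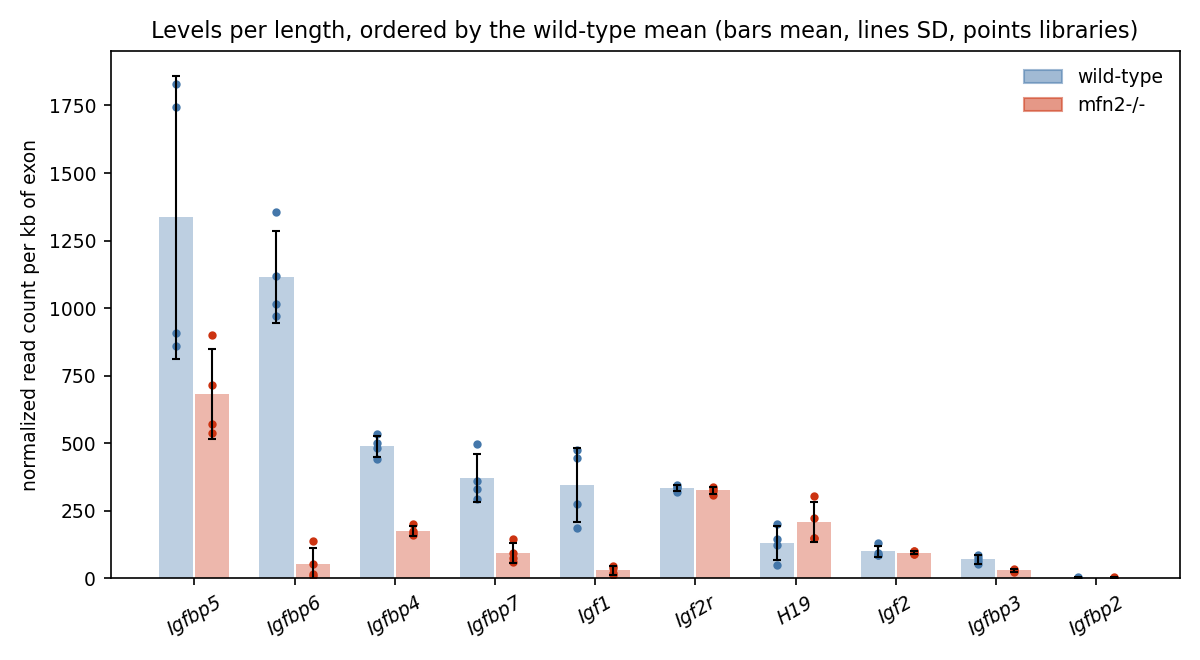
Normalized reads per kilobase of exon (linear axis from 0) of the 10 members in wild-type (blue) and mfn2-/- (red) ASCs, with bars for means, lines for the SD and points for the 4 libraries of each group. The bars of Igfbp6 and Igf1 fall nearly to the axis in mfn2-/- ASCs, and those of Igf2r and Igf2 keep their height.

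The mix of binding proteins was described in the same unit, again over whole libraries. Their summed level was 2797 to 3895 normalized reads per kilobase in wild-type and 900 to 1242 in mfn2-/- libraries, with no overlap. Igfbp5 made up 38.5% ± 10.1 of the sum in wild-type and 65.2% ± 8.75 in mfn2-/- ASCs, and the lowest mfn2-/- share (55.9%) was above the highest wild-type share (49.4%). The share of Igfbp6 was 33.6% ± 7.74 against 5.08% ± 5.72. The shares of Igfbp4 (14.7% ± 2.95 and 17.2% ± 3.12), Igfbp7 (10.9% ± 1.64 and 9.38% ± 4.72) and Igfbp3 (2.15% ± 0.742 and 2.90% ± 0.557) overlapped between the groups. Shares of a sum are not independent of each other, and no test was made of them.

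Proteases that cut the binding proteins, and their inhibitors, included genes that differed strongly. Of 8 genes, all tested, 3 were lower and 1 was higher in mfn2-/- ASCs by limma, beside 6.36% and 3.99% of all genes tested. The median log2 difference of the 8 was -0.66, beside -0.16 over all genes tested. As for the binding proteins, the fall ran alongside that of the fibroadipogenic and tenocyte sums, whose part was not tested. Pappa2, a protease of IGFBP3 and IGFBP5, gave 148, 196, 266 and 266 normalized reads in wild-type replicates 1 to 4 and 0 in each mfn2-/- library. Against a floor of 3 reads per library this is at least 72.5-fold lower (limma adjusted p 0.000197). Pappa, which encodes PAPP-A, gave 163 ± 31.9 against 5.87 ± 7.03 (log2 difference -5.51, SE 1.09, limma adjusted p 0.00623), with mfn2-/- replicates 3 and 4 at 0. The Pappa difference was -3.48 between libraries with Y-linked reads (limma adjusted p 0.00357) and -7.55 between those without (limma adjusted p 0.13). Htra1, a secreted serine protease, gave 1026 ± 161 against 121 ± 113 (log2 difference -4.63, SE 1.26, limma adjusted p 0.0338), with mfn2-/- replicate 4 at 0. Its means differed 8.46-fold. The Htra1 difference was -2.26 between libraries with Y-linked reads (limma adjusted p 0.000426) and -7.00 between those without (limma adjusted p 0.148). Adam9, a membrane protease, was higher at 1420 ± 208 against 783 ± 55.0 (log2 difference 0.85, SE 0.18, limma adjusted p 0.00846). Its 4 mfn2-/- libraries all lay above the wild-type ones. Htra3, the most abundant gene of the list that did not pass, gave 1475 ± 135 and 1032 ± 322 (log2 difference -0.56, limma adjusted p 0.131).

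Among the receptor and adaptor genes of the pathway none passed over all 8 libraries. Of 9 listed genes 6 were tested, 0 were called by limma, and the median log2 difference was 0.22. Igf1r, the signalling receptor of both growth factors, gave 995 ± 290 normalized reads without and 1223 ± 252 with the deletion (log2 difference 0.32, SE 0.24, limma adjusted p 0.437). Grb10, an adaptor that dampens IGF1 and insulin receptor signalling and the most abundant of the list, gave 3093 ± 430 and 2024 ± 672 (log2 difference -0.67, SE 0.24, limma adjusted p 0.106), and its groups did not overlap. The kind of library mattered for Irs2, an insulin receptor substrate, named here after its values were seen. It was 1.64 higher on the log2 scale in mfn2-/- libraries with Y-linked reads (limma adjusted p 0.000139), the difference was -0.25 between those without, and the contrast of these differences passed (limma adjusted p 0.0059). Between libraries with Y-linked reads Igf1r (0.70, limma adjusted p 0.0167) and Insr, the insulin receptor (0.74, limma adjusted p 0.0306), passed too. So did Irs1, another substrate (-0.98, limma adjusted p 0.00258). In that fit of 2 against 2 libraries, 2502 of the 11754 genes tested passed. The contrasts of Igf1r, Insr and Irs1 between kinds did not pass (limma adjusted p 0.404, 0.882 and 0.455). Igfbpl1 and Igfals, a distant relative of the binding proteins and the partner of IGFBP3 in serum, were near 0 and not tested. Igfbp1 was not among the 18877 gene symbols.

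Downstream, 3 of 20 genes of the PI3K, AKT, FoxO and mTOR list differed by limma, 2 lower and 1 higher, around a median log2 difference of 0.11, beside the 10.4% called over all genes. Pik3r1, the main regulatory subunit of PI3K, went from 4011 ± 393 normalized reads to 2023 ± 842 (log2 difference -1.08, SE 0.27, limma adjusted p 0.0206). Pik3r2, a second regulatory subunit, gave 432 ± 52.7 and 244 ± 29.3 (log2 difference -0.82, SE 0.23, limma adjusted p 0.0348). Akt2, the AKT kinase best known from insulin action, was higher at 1152 ± 176 against 735 ± 95.8 (log2 difference 0.64, SE 0.19, limma adjusted p 0.0457).

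Imprinted genes, the class to which Igf2, H19 and Igf2r belong, included 4 of 12 tested that were lower in mfn2-/- ASCs by limma. In this list 0 were higher, and of all genes tested 6.36% were called lower and 3.99% higher. The median log2 difference of the 12 was -0.98, beside -0.16 over all genes tested. The fibroadipogenic and tenocyte sums fell in the same libraries, and their part was not tested. Dcn, a matrix proteoglycan that is also a fibroadipogenic marker, fell from 11218 ± 885 normalized reads to 96.6 ± 22.2 (log2 difference -6.87, SE 0.20, limma adjusted p 2.67e-10). Mest, a paternally expressed enzyme gene, fell from 485 ± 240 to 63.1 ± 33.6 (log2 difference -2.92, limma adjusted p 0.00126). The Mest difference was -4.11 between libraries with Y-linked reads and -1.72 between those without, where it did not pass (limma adjusted p 0.24). Ndn, a growth suppressor, fell from 107 ± 51.6 to 10.6 ± 11.9 (log2 difference -3.83, limma adjusted p 0.0411), with 10, 35, 11 and 0 reads in mfn2-/- replicates 1 to 4. Cdkn1c, an inhibitor of the cell cycle, fell from 1691 ± 876 to 519 ± 265 (log2 difference -1.68, limma adjusted p 0.0161), although wild-type replicate 2 (863) lay below mfn2-/- replicate 4 (889). It was -2.63 between libraries with Y-linked reads and -0.72 between those without. Gnas, a G protein subunit and the most abundant gene that did not pass, gave 7350 ± 1713 and 5875 ± 381 (log2 difference -0.30, limma adjusted p 0.403). Of the proteins that bind Igf2 mRNA, Igf2bp2 was the only one tested and did not pass (log2 difference 0.94, limma adjusted p 0.346). Of 4 genes of mannose 6-phosphate sorting, the route served by the IGF2 receptor, 0 were called by limma, and M6pr, the most abundant, gave a log2 difference of 0.76 (limma adjusted p 0.213).

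**Figure D5:**
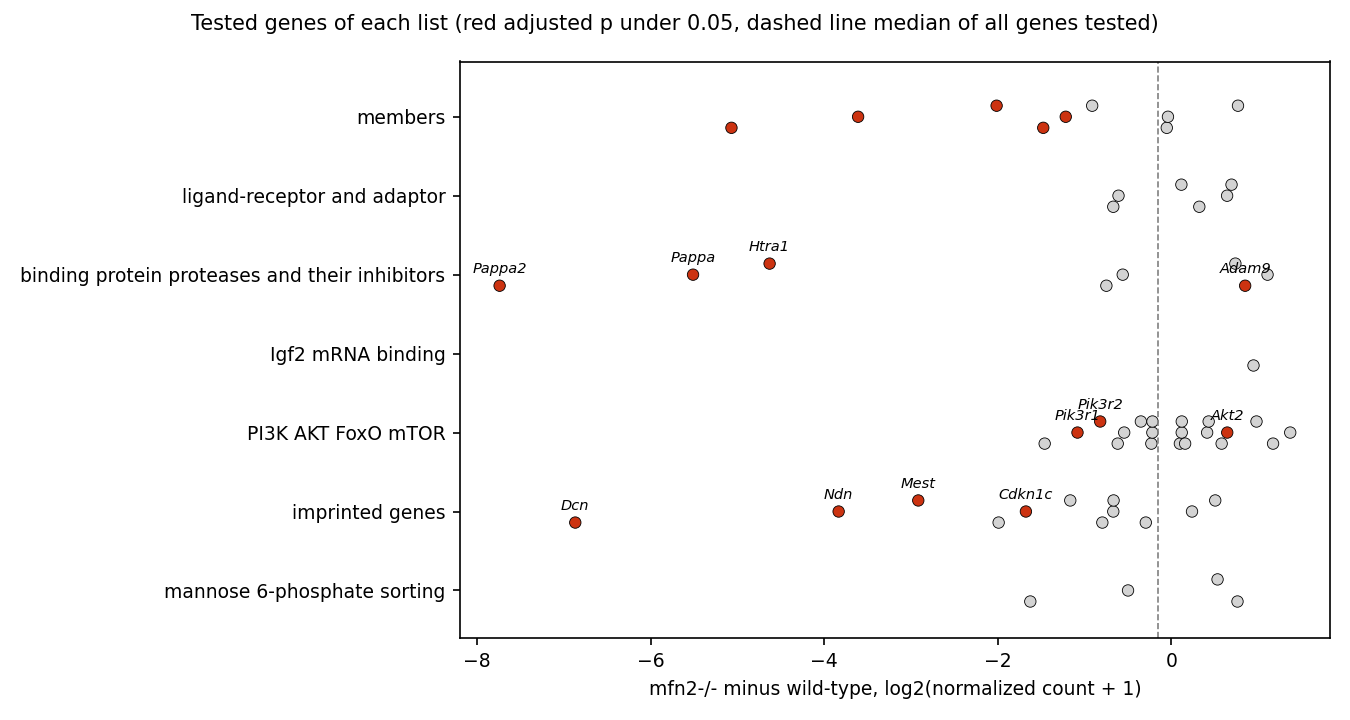
Differences in log2(normalized count + 1), mfn2-/- minus wild-type, of the tested genes of the members and 6 further lists (points, red where the limma adjusted p was under 0.05, named outside the members), with a dashed line at the median of all genes tested, -0.16. Pappa2, Pappa, Htra1 and the imprinted genes Dcn, Ndn and Mest lie far to the left, while the receptor and adaptor genes lie on both sides of the line.

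The genes whose profiles over the 8 libraries were most like each member were listed by the root mean square difference of centred log2 values, among the 5585 tested genes with a mean of at least 100. For Igf1 these were Abi3bp (0.30), a matrix protein, Igsf10 (0.31) and Prrg3 (0.32). For Igfbp6 they were Adamtsl2 (0.55), Adamts3 (0.68) and Postn (0.74), which encode secreted or matrix proteins. For Igfbp4 they were Pam (0.15), an enzyme that amidates peptides, Lamc1 (0.18), a laminin chain, and Sh3pxd2a (0.19). Igfbp3 was nearest to Rrbp1 (0.21), Pam (0.21) and its fellow member Igfbp4 (0.23). Igfbp7 was nearest to Fuca1 (0.31), Itgb5 (0.32) and Mtap1a (0.32), and Igfbp5 to Plin3 (0.14) and Tm7sf3 (0.16). Of the members that did not pass the test beside Igfbp5, Igf2 was nearest to Cdk19 (0.11), Ep400 (0.11) and Irak1 (0.12), Igf2r to Trip12 (0.09) and Birc6 (0.09), and H19 to Skiv2l2 (0.17), Lsg1 (0.18) and Nacc1 (0.18). These 8 points share the contrast of genotypes, so likeness to a member that fell includes the fall itself.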

How the data were processed

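The authors sequenced total RNA of sorted ASCs after stranded library preparation with a low-input kit. Groups (4 wild-type and 4 mfn2-/- libraries) and replicate numbers follow the sample titles. The submitters' processing notes name Trim Galore, HISAT2, featureCounts, DESeq2 and the build mm9, without versions, and the annotation is not given in the sources used here. The deposited table gives 1 signal value for each gene and library, read counts that the authors divided by 1 size factor per library. In each library 100% of values were whole multiples of 1 step (within 0.1 read), so whole reads were recovered. The table has no coordinates. Those given are from GENCODE M21 and RefSeq on GRCm38. Exon lengths are the union of GENCODE exons.

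Genes with a mean of at least 10 were tested with limma 3.58.1 (R 4.3.3) on log2(value + 1), which understates changes of weak genes, with an intensity trend, two-sided, with Benjamini-Hochberg adjustment over all genes at 0.05. Members were also compared by two-sided exact permutation over the 70 arrangements. The alternatives were pseudocounts of 0.1 and 10, no minimum and a minimum of 50, equal totals, upper-quartile and quantile scaling, library weights, no trend, a block for the replicate number, leaving out each library, each kind of library alone or as a term, an adjusted p under 0.01, and edgeR 4.0.16 and DESeq2 1.42.0 on the recovered reads. Leaving out the shallowest library of each group was chosen after seeing the data. Tests were checked on simulated counts. The members and lists were chosen with earlier results of these data known. Named genes were all members, every called gene and the most abundant uncalled gene of each pathway list (marker lists are given by counts), the 3 most alike genes per member, Mfn2 and Hif1a, and 3 genes that this rule picks are not reported here. Same-numbered replicates did not deviate together (correlations -0.11 to 0.04), and the main fit did not pair samples by number. The best-matched partners of any number also reached only 0.04 to 0.12, so this check cannot exclude a pairing. Amplified copies cannot be told from separate molecules, so counting limits cover counting error only. Python 3.11.15 drew the figures.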

Additional observations from a re-analysis of the deposited data

Results flagged for a closer look

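Igf2 stood at 755 normalized reads in wild-type replicate 2, far from the other 3 wild-type libraries at 501 to 532. It exceeded Dixon's 95% limit for 4 samples, and 21 groups of 4 libraries were examined in this way, of which chance would pick out about 1 in 20. Without this library the Igf2 difference was 0.09 on the log2 scale, which did not pass the limma test (adjusted p 0.836).

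Irs2 differed between genotypes in unlike ways in libraries with and without Y-linked reads. The contrast of the differences was 1.89 on the log2 scale (limma adjusted p 0.0059). Wild-type replicates 1 to 4 gave 1485, 1298, 552 and 670 normalized reads, and mfn2-/- replicates gave 2016, 1783, 1265 and 1072. Over all genes 173 had such a contrast, and 0 members did by limma.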

How the results depend on the processing

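The number of members called lower was 5, and 4 to 6 when single libraries were left out. It was 2 (Igf1 and Igfbp4) with only the libraries without Y-linked reads, where 177 genes in all were called, and 6 with only those with Y-linked reads, where 2502 were. The number called higher was 0 in every setting run. Igf1 and Igfbp4 kept direction and call in 24 of 24 settings, with adjusted p up to 0.00742 and 0.0342. Igfbp6 and Igfbp7 lost the call only with the libraries without Y-linked reads, at adjusted p 0.11 and 0.209. Igfbp3 lost it in 10 settings, among them no minimum (0.0577), quantile scaling (0.0679) and, for single libraries left out, all but wild-type replicate 1 and mfn2-/- replicate 4 (0.0559 to 0.112). Igfbp5 gained a call in 8, among them DESeq2 (0.0067), library weights (0.000222) and the fits without wild-type replicate 1, wild-type replicate 2 or mfn2-/- replicate 1 (0.0381 to 0.0461).

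With the replicate number as a block, 4 members were called lower, since Igfbp3 was lost (adjusted p 0.0773), and 1043 genes in all against 1217. Igf2 ran from -0.11 to 0.086 when single libraries were left out, turning without wild-type replicate 2, and was 0.077 with only the libraries with Y-linked reads. Igf2r turned to 0.0065 with equal totals, 0.0046 with upper-quartile scaling and 0.028 with edgeR. Mfn2 ran from -1.04 to -0.80 when single libraries were left out and passed with library weights (-0.87, adjusted p 0.0099) and with only the libraries with Y-linked reads (-0.95, adjusted p 0.0393). Calls over all genes were 633 without the intensity trend (520 lower, 113 higher), 3037 with library weights, 670 without wild-type replicate 3 and 749 without wild-type replicate 4. Quantile scaling moved the median log2 difference of all genes from -0.16 to 0.13. The causes were not tested. The shallowest libraries were wild-type replicate 1 and, of the other group, replicate 4. Igfbp2 had at most 12 reads in any library, too few to test.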
